A study of Mus musculus with 6 samples.

Results

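The genes described here are 9 regulators of muscle fibre type: the homeodomain factor Six4 and its coactivator Eya1, the TEAD family factor Tead1 and its cofactor Vgll2, the T-box factor Tbx15, the SOX factor Sox6, the calcium-responsive factor Nfatc1, the homeobox factor Prox1 and the nuclear factor one protein Nfix. They were chosen by name, but with earlier results of these data known. Each had 1 row among the 27131 rows of a table of estimated counts per gene. All 9 passed the filter on low counts, which left 16960 genes. The muscle was the levator ani/bulbocavernosus, an androgen-sensitive muscle pair of the male pelvic floor, taken at 14 weeks of age from 3 wild-type mice (WT) and 3 mice labelled 113Q, the knock-in model of this study. It stands for spinal and bulbar muscular atrophy (SBMA), an inherited disease of motor neurons and muscle in which the androgen receptor carries a lengthened glutamine repeat. All mice were fed standard chow. The sources used here do not give the strain or the knock-in allele beyond its name 113Q, and whether the 3 mice of a group came from separate litters is likewise unstated, so p-values measure the spread between these samples.

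Skeletal muscle fibres are of fast or slow type, and the difference is set by which myosin, troponin and metabolic genes each fibre transcribes. Six4, working with EYA coactivators, is known to take part in driving fast fibre genes, Tbx15 is known for its part in fast glycolytic fibres, and Sox6 represses slow fibre genes in fast fibres. Nfatc1, which enters the nucleus when nerve activity raises calcium and activates the phosphatase calcineurin, and Prox1 are known for promoting the slow programme, TEAD factors bind the MCAT elements of muscle genes, and Nfix drives the change from embryonic to foetal muscle genes.

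In 113Q muscle 5 of the 9 regulators were lower (Vgll2, Tead1, Sox6, Tbx15 and Six4), 2 were higher (Prox1 and Eya1) and 2 did not pass the test (Nfatc1 and Nfix), at an adjusted p below 0.05 in edgeR's quasi-likelihood test. Of all genes tested, 18.1% were lower, 16.5% higher and 34.6% called in either direction. The groups did not overlap for 8 of the 9 regulators, Nfatc1 being the exception, against 49.9% of all genes tested. The median log2 fold change of the 9 was -0.53, beside 0.01 for all genes. Levels are in CPM, counts divided by a TMM-scaled library size and set to a common total, where TMM sets each library's scale so that most genes do not differ.

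That scaling bears on every value here. The TMM factors lay between 0.768 and 0.794 in WT and between 1.26 and 1.32 in 113Q, and the 6 libraries held between 43581087 and 73873481 estimated counts. With library totals alone the median over all genes of the log2 fold change moved by 0.72, and the share of called genes that were higher went from 47.6% to 93.9%. Changes are therefore relative to the other genes. On library totals none of the 5 lower regulators passed and 4 of the 9 were called higher, namely Eya1, Prox1, Nfatc1 and Nfix, where 4.19% of all genes were lower and 64.9% higher. Abundant muscle transcripts also moved with the groups. The 8 skeletal muscle markers were all present, 7 of them lower and 1 higher, and their sum ran from 105904 to 121699 CPM in WT and from 29886 to 37466 CPM in 113Q. The 7 markers of blood endothelium were all lower, with a median log2 fold change of -0.62 and sums of 345 to 434 CPM in WT against 239.6 to 243 CPM in 113Q. The part of either list in the results was not tested. In bulk muscle, fewer cells of a type and less RNA per cell cannot be told apart.

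**Figure D1:**
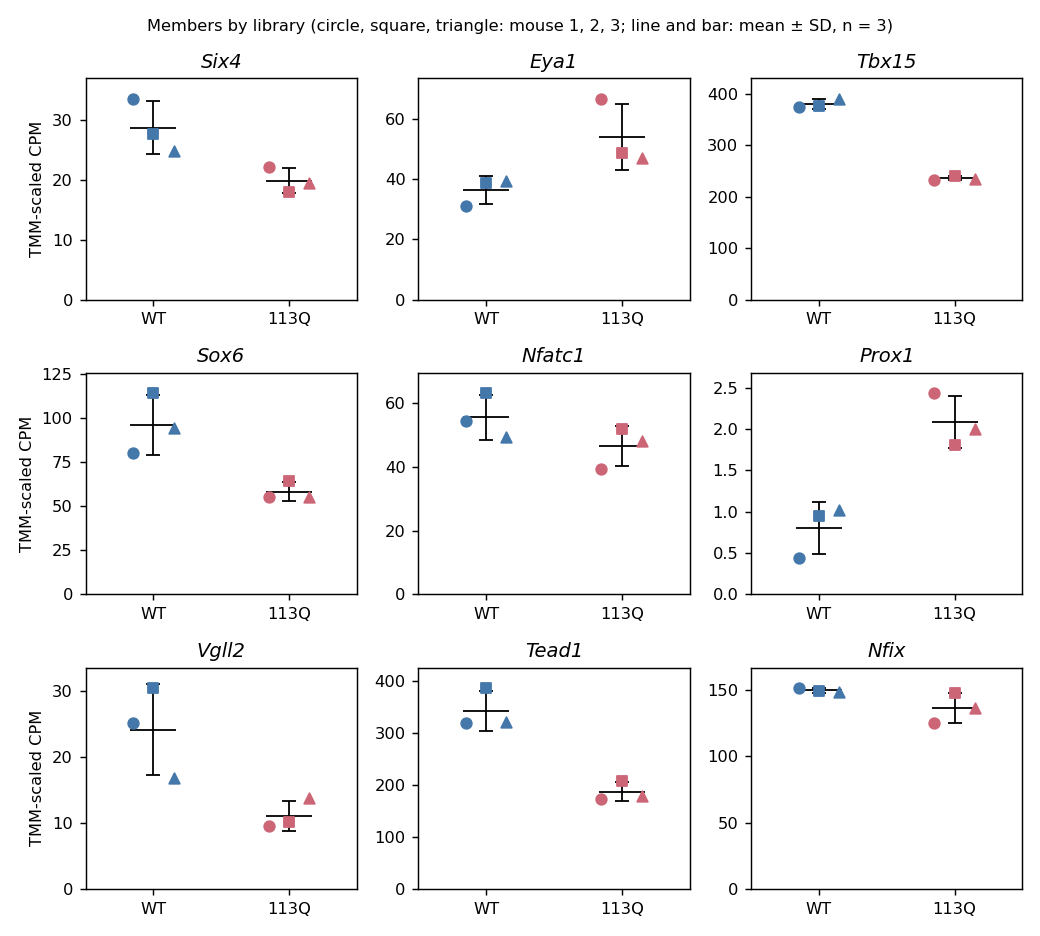
Level of each of the 9 regulators in TMM-scaled CPM (vertical axes, each from 0) in the 3 WT and 3 113Q libraries; symbols are single mice and the line with its bar is the mean ± SD, n = 3. Tbx15 sits near 380.1 CPM in WT and 235.7 CPM in 113Q with little spread, while Nfatc1 overlaps between the groups; with library totals alone the direction of Six4, Tbx15, Nfatc1 and Nfix flips.

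**Figure D2:**
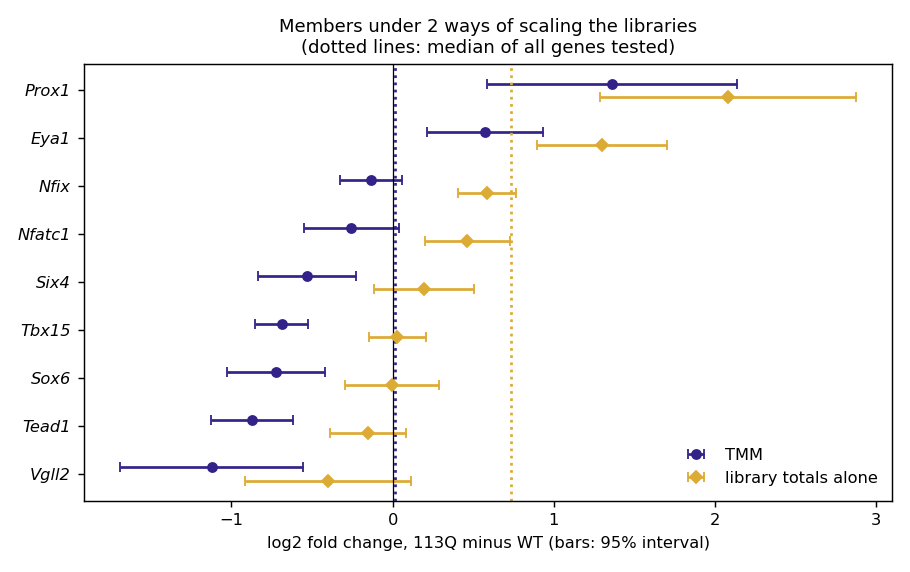
Log2 fold change of each regulator, 113Q minus WT (horizontal axis), with its 95% interval, under TMM scaling (circles) and library totals alone (diamonds); dotted lines mark the median of all genes under each. Every regulator moves right by about the same amount, the median of all genes included (from 0.01 to 0.73), so the order of the 9 is kept and the place of 0 is not.

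Levels per kilobase of merged exon put Tbx15 far above the others. In WT, Tbx15 was at 101.4 ± 2.41 CPM per kilobase (SD, n = 3), followed by Tead1 at 25.2 ± 2.83, Nfix at 20.4 ± 0.238, Vgll2 at 14.6 ± 4.17, Nfatc1 at 7.45 ± 0.942, Sox6 at 6.49 ± 1.14, Eya1 at 4.65 ± 0.589, Six4 at 2.65 ± 0.410 and Prox1 at 0.0957 ± 0.0373. Of these neighbours in the order, only Nfatc1 and Sox6 overlapped between mice. In 113Q the order differed: Nfix, at 18.6 ± 1.57 CPM per kilobase, lay above Tead1 at 13.8 ± 1.35, and Eya1, at 6.93 ± 1.41, stood beside Vgll2 at 6.73 ± 1.39 and Nfatc1 at 6.24 ± 0.855, with these 3 overlapping in their neighbouring pairs. Sox6 followed at 3.93 ± 0.362, then Six4 at 1.83 ± 0.191 and Prox1 at 0.248 ± 0.0380, while Tbx15 stayed first at 62.9 ± 0.980. Exon lengths are those of GENCODE release M21 and take in all listed transcripts, so a gene with long unused exons reads low on this scale.

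**Figure D3:**
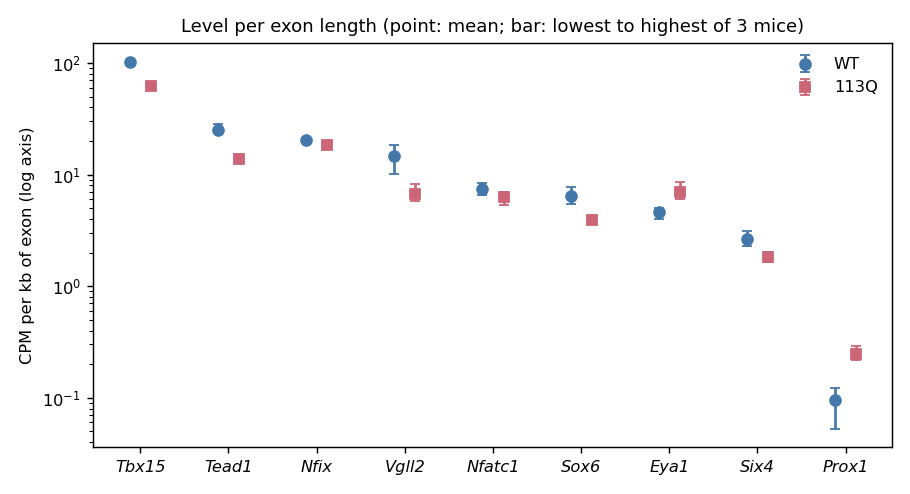
Level of each regulator in CPM per kilobase of merged exon (log axis) in WT (circles) and 113Q (squares), ordered by the WT mean; points are means and bars run from the lowest to the highest of 3 mice. Tbx15 leads in both groups and Prox1 lies lowest, at 0.0957 in WT and 0.248 in 113Q.

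Six4 and Eya1 are partners, a DNA-binding factor and the coactivator phosphatase it recruits, and their transcripts moved in opposite directions. Six4 (chr12:73099609-73113456, minus strand, mm10) was at 33.7, 27.7 and 24.9 CPM in WT and at 22.1, 18.01 and 19.6 CPM in 113Q. All 3 113Q libraries lay below all 3 WT libraries, though WT mouse 3 and 113Q mouse 1 came close. Six4 fell by 0.53 ± 0.13 (log2, SE; edgeR adjusted p = 0.0150; range over alternatives 0.00149 to 0.232), a direction that library totals alone turned to 0.19. The call was lost without 113Q mouse 2 (-0.46, edgeR adjusted p = 0.0603) and without 113Q mouse 3 (-0.51, edgeR adjusted p = 0.0515).

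Eya1 (chr1:14168954-14310235, minus strand) was at 31.0, 38.6 and 39.3 CPM in WT and at 66.8, 48.7 and 46.9 CPM in 113Q. The groups did not overlap, and 113Q mouse 1 was well above the rest. Eya1 rose 1.49 times (log2 fold change 0.57 ± 0.16, SE; edgeR adjusted p = 0.0230; range over alternatives 0.000349 to 0.0771), and library totals alone gave 2.46 times. Without WT mouse 1 the call was lost (0.47, edgeR adjusted p = 0.0754). The 7 fibroblast markers summed to 825 to 1533 CPM (WT) and 1255 to 1669.9 CPM (113Q), and the 8 satellite cell markers to 155 to 191 CPM (WT) and 238 to 254 CPM (113Q), with none at 0. Their part in the Eya1 difference was not tested.

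Of 7 other genes of the network of Six4, EYA and DACH proteins analysed here, 3 were higher and 4 did not pass, with a median log2 fold change of 0.80 that was 0.40 without WT mouse 1. Dach1, a corepressor in this network, was at 5.77, 5.45 and 6.66 CPM in WT and at 35.0, 32.2 and 27.5 CPM in 113Q, 5.29 times higher (edgeR adjusted p = 1.58e-05). Eya4, a relative of Eya1, rose from 25.5 ± 3.66 to 44.6 ± 3.59 CPM (SD, n = 3 each; edgeR adjusted p = 0.00142). Six2, a relative of Six4, was at 3.20, 3.59 and 2.98 CPM in WT and at 6.83, 6.05 and 6.17 CPM in 113Q, 1.95 times higher (edgeR adjusted p = 0.00239).

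A share of a family's counts within one library does not depend on how libraries are scaled. Eya1 held 41.0 ± 1.44% of the counts of Eya1 to Eya4 in WT and 42.9 ± 4.31% in 113Q (SD, n = 3 each), and these overlapped. With 3 mice against 3, an exact two-sided permutation test cannot give a p below 0.1; the Eya1 share gave p = 0.7 (0.767 after Benjamini-Hochberg adjustment over the 23 shares computed). In each of the 6 families computed at least 1 gene's share did not overlap between the groups; in the EYA, NFAT and SOX families that gene was a relative and not the regulator described here.

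**Figure D4:**
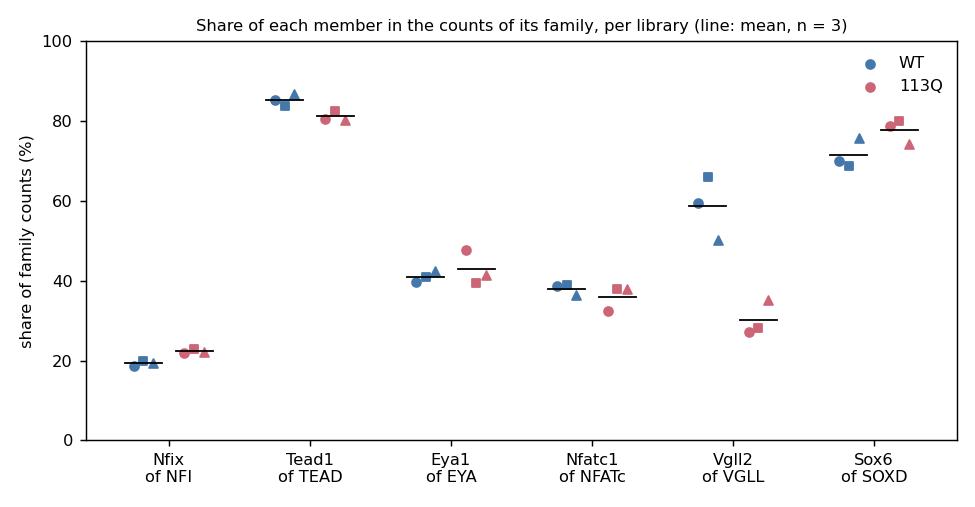
Share of each regulator in the estimated counts of its gene family (vertical axis, %), per library, for the 6 families computed; lines are means of 3 mice. Vgll2 drops from 58.6% to 30.2% of the VGLL counts, while Eya1, Nfatc1 and Sox6 overlap between the groups.

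Tead1 and its muscle cofactor Vgll2 had the largest falls of the 9. Tead1 (chr7:112679318-112906807, plus strand) was at 319, 386 and 321 CPM in WT and at 174, 208 and 179 CPM in 113Q. The highest 113Q library was far below the lowest WT library. Tead1 fell by 0.87 ± 0.11 on the log2 scale, or to 54.6% of WT (edgeR adjusted p = 0.00065; range over alternatives 1.11e-12 to 0.215), and with library totals alone the difference was -0.15. Its share of the TEAD counts was 85.2%, 83.8% and 86.9% in WT and 80.6%, 82.7% and 80.3% in 113Q (exact permutation p = 0.1, 0.164 adjusted), so Tead1 remained the main TEAD transcript.

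Vgll2 (chr10:52022502-52028471, plus strand) was at 25.1, 30.5 and 16.8 CPM in WT and at 9.48, 10.1 and 13.7 CPM in 113Q. The WT mice spread widely, and the lowest of them still lay above the highest 113Q mouse. It fell by 1.12 ± 0.24 on the log2 scale, to 45.9% of the WT level (edgeR adjusted p = 0.0106; range over alternatives 8.31e-06 to 0.14), and the difference with library totals alone was -0.40. Within the VGLL family Vgll2 gave 59.5%, 66.1% and 50.3% of the counts in WT and 27.2%, 28.3% and 35.1% in 113Q (exact permutation p = 0.1, 0.164 adjusted). Vgll3, a cofactor found in many tissues, rose from 6.31 ± 1.13 to 14.6 ± 2.00 CPM (edgeR adjusted p = 0.000963). Per kilobase of exon Vgll2 was still the higher of the pair in 113Q, at 6.73 ± 1.39 CPM against 2.06 ± 0.282 for Vgll3 (14.6 ± 4.17 and 0.888 ± 0.160 in WT; SD, n = 3 each).

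The promoters of Vgll2 and Prox1, the regulators with the largest fall and the largest rise, are shown so that the sequence ahead of each start can be read beside the values. Each is the 250 bases before a RefSeq transcript start on GRCm38.p6, at chr10:52022252-52022501 on the plus strand for Vgll2 and chr1:190170828-190171077 on the minus strand for the outer of 2 Prox1 starts. They are written 5′ to 3′ with E-boxes (the general letters CANNTG, searched on both strands) in capitals.
Vgll2: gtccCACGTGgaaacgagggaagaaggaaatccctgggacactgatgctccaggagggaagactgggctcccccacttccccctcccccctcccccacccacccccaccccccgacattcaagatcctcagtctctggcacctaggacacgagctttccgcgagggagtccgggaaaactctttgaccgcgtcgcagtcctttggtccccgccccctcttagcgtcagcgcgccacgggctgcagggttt
Prox1: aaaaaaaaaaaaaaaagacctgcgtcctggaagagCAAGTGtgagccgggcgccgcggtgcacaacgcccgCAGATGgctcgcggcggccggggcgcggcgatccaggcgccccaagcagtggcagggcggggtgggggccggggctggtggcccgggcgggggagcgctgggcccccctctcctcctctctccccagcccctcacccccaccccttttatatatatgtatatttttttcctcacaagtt
In the 300-base windows from 250 bases before to 50 after these starts, Vgll2 had 1 E-box and Prox1 had 2, and 72.3% of all 32851 such windows held at least 1. The MCAT letters GGAATG were found in neither, against 14.7% of windows, and the NFAT core GGAAA occurred 4 times in the Vgll2 window and 1 time in the Prox1 window, against 61.3% of windows with at least 1. These are matches of letters and show no binding.

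Of the 7 other TEAD relatives and cofactors tested, 3 were higher, 1 was lower and 3 did not pass. The median log2 fold change of 0.09 rested on single mice, running from 0.0302 without WT mouse 3 and 0.0451 without 113Q mouse 2 to 0.160 without WT mouse 1, 0.239 without 113Q mouse 1 and 0.29 without WT mouse 2. Besides Vgll3, the TEAD factor Tead3 rose 1.47 times (edgeR adjusted p = 0.0022), and Tead4, a TEAD factor of myoblasts, went from 37.2, 55.9 and 31.3 CPM in WT to 16.0, 19.0 and 17.1 CPM in 113Q, a fall of 1.25 ± 0.21 on the log2 scale (edgeR adjusted p = 0.00402). In the Hippo pathway, the kinase cascade that keeps the TEAD coactivators YAP and TAZ out of the nucleus, 2 of 8 genes were higher, 2 lower and 4 did not pass (median 0.19). The kinase adaptor Mob1b fell by 0.70 and the kinase Lats1 by 0.32 on the log2 scale, while the kinase Stk3 rose 1.96 times (edgeR adjusted p = 0.00757, 0.0221 and 0.0211), but Mob1b and Lats1 turned to 0.02 and 0.40 with library totals alone. Lats1 lost its call without WT mouse 1 or 3 and without 113Q mouse 2 or 3 (edgeR adjusted p = 0.0656, 0.0575, 0.0653 and 0.0849), and Stk3 lost it without 113Q mouse 1 or 2 (0.0716 and 0.0541).

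Of 6 known target genes of YAP and TEAD tested, 3 were higher, 0 lower and 3 did not pass, with a median log2 fold change of 0.69. Ctgf, among those that did not pass, was alone of the 6 in having a negative estimate (-0.67 on the log2 scale, edgeR adjusted p = 0.0701). Crim1 rose from 15.2 ± 2.22 to 26.2 ± 2.66 CPM and Amotl2 from 24.6 ± 3.46 to 40.9 ± 7.09 CPM (edgeR adjusted p = 0.00229 and 0.00624). Ankrd1, a stretch-responsive muscle protein, was at 2.93, 2.19 and 3.29 CPM in WT and at 15.9, 4.97 and 17.6 CPM in 113Q, where mouse 2 stood apart; its call (edgeR adjusted p = 0.0171) was lost without WT mouse 1, 2 or 3 (0.0681, 0.077 and 0.0547) and in limma voom (0.107).

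Tbx15 and Sox6, which like Six4 and EYA coactivators are tied to the fast fibre, both fell. Six4 fell too, while Eya1 rose, as given above. Tbx15 (chr3:99240381-99354259, plus strand) was at 374.5, 375 and 390.5 CPM in WT and at 233, 239.9 and 234 CPM in 113Q. Each group was tight and the gap between them wide, and the fall was 0.69 ± 0.07 on the log2 scale, to 62.0% of WT (edgeR adjusted p = 0.000275; range over alternatives 4.08e-24 to 0.736), although library totals alone gave 0.03. As CPM of the library total, without TMM, Tbx15 was at 290.2, 288 and 310.2 in WT and 307, 304 and 296 in 113Q. On that scale the groups overlapped.

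Sox6 (chr7:115470872-116038796, minus strand) was at 80.5, 114 and 94.1 CPM in WT and at 54.9, 64.5 and 55.5 CPM in 113Q. Its groups were also apart, with more spread in WT. Sox6 fell by 0.72 ± 0.13 on the log2 scale, to 60.5% of WT (edgeR adjusted p = 0.00406; range over alternatives 3.03e-06 to 0.979), with -0.004 on library totals alone. Within its SOX group, Sox6 made up 71.5 ± 3.67% of the counts of Sox5, Sox6 and Sox13 in WT and 77.8 ± 3.07% in 113Q (SD, n = 3 each), which overlapped (exact permutation p = 0.2, 0.287 adjusted). Sox13, a close relative, fell by 1.32 ± 0.22 on the log2 scale (edgeR adjusted p = 0.00426).

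The fibre genes themselves moved unevenly. All 14 fast fibre genes were lower, with a median log2 fold change of -1.81 (-1.09 on library totals alone). The fast myosin Myh1 was at 4.28% of its WT level, the light chain Myl1 at 24.6% and the light chain Mylpf at 27.3% (edgeR adjusted p = 3.26e-06, 9.70e-06 and 9.20e-06). Of 12 slow fibre genes tested, 5 were higher, 2 lower and 5 did not pass. Their median of 0.51 was 0.28 without WT mouse 1, 0.99 without WT mouse 3 and 0.93 without 113Q mouse 3. Several of these genes were near the floor in WT, where Tnnc1, Tnni1, Tnnt1 and Pln averaged 0.398, 0.757, 1.38 and 1.77 CPM. Tnnt1 and Pln are among the higher calls. Apart from Myh7, the others tested averaged 3.93 CPM or more in WT. Myl2 and Myh7b did not pass the filter on low counts. Atp2a2, the calcium pump of slow fibres, rose 2.28 times and the light chain Myl6b 2.02 times (edgeR adjusted p = 0.000161 and 0.000758). The light chain Myl3 fell by 4.41 on the log2 scale (edgeR adjusted p = 3.80e-06). Though listed with the slow genes, Myl3 stood at 6224 ± 805 CPM in WT (SD, n = 3), far above the slow myosin Myh7. Bulk muscle also holds smooth muscle cells. Among 7 smooth muscle markers 1 was higher, 1 lower and 5 did not pass, with a median log2 fold change of 1.69. The lower marker, Des, is also among the skeletal muscle markers. Acta2, Myh11, Tagln and Cnn1 lay higher in every 113Q library than in any WT library, though only Acta2 passed. Smtn and Lmod1 overlapped between the groups. The part of smooth muscle in the slow fibre list was not tested. The slow myosin Myh7 stayed near 1 CPM in both groups, at 1.24 ± 0.174 in WT and 0.833 ± 0.759 in 113Q (SD, n = 3 each), and did not pass (edgeR adjusted p = 0.559); it was chosen after its values were seen.

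Nfatc1 was at 54.4, 63.2 and 49.3 CPM in WT and at 39.5, 52.0 and 48.3 CPM in 113Q, and the groups overlapped. The log2 fold change was -0.26 with a 95% interval from -0.55 to 0.04 (edgeR adjusted p = 0.158; range over alternatives 0.00666 to 0.397), and that interval takes in the fall of 0.53 estimated for Six4. On library totals alone it was higher, at 0.46. With a term for the libraries that carry epithelial transcripts the difference passed as lower (-0.36, edgeR adjusted p = 0.0123). Nfatc1 supplied 38.0 ± 1.44% of the counts of Nfatc1 to Nfatc4 in WT and 36.0 ± 3.22% in 113Q (SD, n = 3 each; exact permutation p = 0.5, 0.575 adjusted).

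In the calcineurin pathway that controls Nfatc1, whose list shares Myoz2 with the slow fibre genes, 3 of 16 genes were higher, 6 lower and 7 did not pass, with a median log2 fold change of -0.23 that turned to 0.50 on library totals alone. Ppp3ca, a catalytic subunit of calcineurin, was at 126, 122 and 119 CPM in WT and at 180.0, 171 and 166 CPM in 113Q, 1.41 times higher (edgeR adjusted p = 0.00153). Rcan3, of the family of calcineurin inhibitors, rose 2.04 times (edgeR adjusted p = 0.0004). Myoz1, a Z-disc protein of fast fibres that binds calcineurin, fell to 22.3% of WT (edgeR adjusted p = 1.29e-05).

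Prox1 (chr1:190118035-190170714, minus strand) had the lowest level of the 9 and the largest rise. It had 15, 50 and 53 counts in WT and 218, 162 and 187 in 113Q, which is 0.444, 0.944 and 1.02 CPM against 2.43, 1.81 and 2.01 CPM. The groups did not overlap. Prox1 was 2.57 times higher (log2 fold change 1.36 ± 0.34, SE; edgeR adjusted p = 0.0151; range over alternatives 0.000773 to 0.0781), and 4.23 times higher on library totals alone. Without 113Q mouse 1 the call was lost (1.24, edgeR adjusted p = 0.0530).

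Prox1 is also a defining gene of lymphatic endothelium and is found in satellite cells, the stem cells of muscle. The 7 lymphatic markers were all present, with sums of 26.8 to 37.5 CPM in WT and 38.3 to 54.5 CPM in 113Q, 2 of them passing as higher and 1 as lower, while the 7 blood endothelium markers were lower. Of the 8 satellite cell markers 6 were higher and 2 did not pass. The part of these cells in the Prox1 difference was not tested. GENCODE places 133 of the 8390 exon bases of Prox1 on the opposite strand of an antisense gene, Prox1os. No source used here gives the strand setting of the counts, so reads within those 133 bases cannot be told apart.

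Nfix (chr8:84699876-84800344, minus strand) was at 152, 149.5 and 148 CPM in WT and at 125, 148 and 137 CPM in 113Q. 113Q mouse 2 all but reached the lowest WT mouse. The log2 fold change was -0.13 with a 95% interval from -0.33 to 0.06 (edgeR adjusted p = 0.257; range over alternatives 0.000247 to 0.615), and the falls estimated for Vgll2, Tead1, Sox6, Tbx15 and Six4 lie outside that interval. The interval of Six4 itself, from -0.83 to -0.23, overlaps that of Nfix. No test between genes was run. With library totals alone Nfix was called higher, at 0.58. Its share of the NFI counts was 18.7%, 19.9% and 19.4% in WT and 22.0%, 22.9% and 22.2% in 113Q (exact permutation p = 0.1, 0.164 adjusted). Nfic, the most abundant of these relatives, fell by 0.63 ± 0.11 on the log2 scale (edgeR adjusted p = 0.00314), but not on library totals alone (0.09). The exons of Nfix share 4 bases with Lyl1 and 137 bases with G430095P16Rik on the opposite strand.

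Among the relatives of Nfix, Sox6, Tbx15 and Prox1, 1 of 8 tested was higher, 2 were lower and 5 did not pass (median -0.17, from -0.33 to -0.0835 with each of the 6 mice left out in turn, WT mouse 3 and 113Q mouse 2 giving these ends, and 0.55 on library totals alone). The higher one was Nfia, by 1.23 times (edgeR adjusted p = 0.0228), and the call went when WT mouse 2 or any 113Q mouse was left out (0.0591, 0.0557, 0.0683 and 0.0650). Of 6 genes that mark embryonic and foetal muscle stages, between which Nfix acts, 5 were lower and 1 was higher (median -1.50). The list pools genes of both stages, so its count and median cannot show a change between them. The embryonic myosin Myh3 was itself lower (log2 fold change -1.85, edgeR adjusted p = 0.0230). Ckm is also counted among the skeletal muscle markers, and Cdh15 among the satellite cell markers. Cdh15, an adhesion protein of satellite cells, was the higher one (log2 fold change 0.61, edgeR adjusted p = 0.00616); it is named for being the sole exception. Eno3, the muscle enolase and a gene of the foetal stage, was at 26.4% of WT, the creatine kinase Ckm at 30.5% and the perinatal myosin Myh8 at 41.0% (edgeR adjusted p = 1.13e-05, 8.52e-05 and 7.12e-05).

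Of 18 other regulators of fibre type tested, 2 were higher, 5 lower and 11 did not pass, with a median of -0.09 that became -0.0469 without 113Q mouse 1 and 0.63 on library totals alone. Maf, a large Maf factor, was at 25.5, 27.1 and 28.2 CPM in WT and at 10.5, 11.1 and 9.53 CPM in 113Q, a fall of 1.37 ± 0.10 on the log2 scale (edgeR adjusted p = 5.23e-05). Smyd1, a muscle methyltransferase of myosin assembly, fell to 56.4% of WT and Bhlhe41, a repressor, to 66.1% (edgeR adjusted p = 0.000238 and 0.00676), with -0.11 and 0.12 on the log2 scale on library totals alone.

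**Figure D5:**
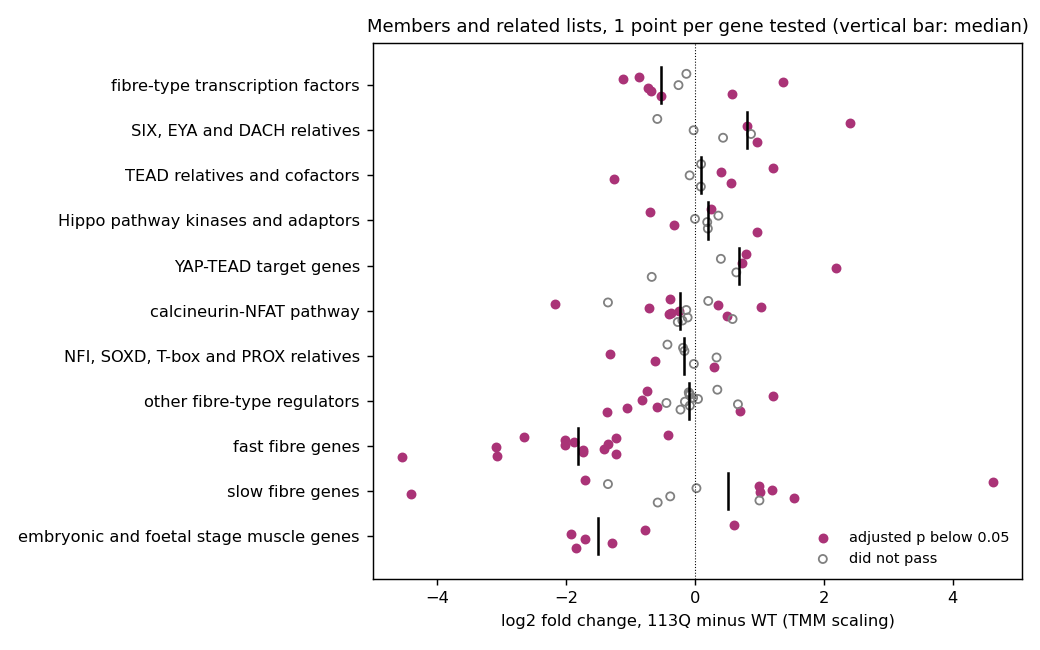
Log2 fold change of the 9 regulators and of the genes in each related list under TMM scaling (horizontal axis); 1 point per gene tested, filled where the adjusted p is below 0.05, with a bar at the median. The fast fibre genes all lie left of 0, at a median of -1.81, and the 9 regulators spread from -1.12 to 1.36; library totals alone move every list to the right by about 0.72.

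Across the 6 libraries the 9 regulators did not share a single profile. Among 44 related factors, the gene whose log2 CPM lay closest to Tbx15, Sox6 and Tead1 after centring was in each case Smyd1, with root mean square distances of 0.0865, 0.166 and 0.102. Closest to Vgll2 was Sox13 (0.153), to Six4 Bhlhe41 (0.194), to Eya1 Six5 (0.151), to Prox1 Meis1 (0.186), to Nfatc1 Ppard (0.0939) and to Nfix Rreb1 (0.0344). The distances hold the difference between the groups and are given as a description.

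Epithelial transcripts were found in WT mouse 2 and 113Q mice 2 and 3, where Epcam was at 3.83, 8.29 and 10.2 CPM, against at most 0.0385 CPM elsewhere. In the 3 libraries without them, which hold a single 113Q mouse, 4 of the 9 regulators were called lower and 1 higher, against 10.5% and 7.48% of all genes. In the 3 libraries with them, which hold a single WT mouse, 6 were called lower, Nfatc1 among them, and 0 higher, against 15.5% and 14.3% of all genes. There Prox1 had a log2 fold change of 1.01 (edgeR adjusted p = 0.0559) and Eya1 of 0.30 (0.0625). The lone mouse of a group is taken in these fits to vary as the others do.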

How the data were processed

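The deposited table gives expected counts, that is fragments estimated per gene by the authors. Per the submitters' processing notes the tools included TopHat2 2.0.9, Bowtie2 2.1.0 and Cuffdiff 2.1.1, and the build was mm10; the annotation, filters and strand setting: not given in the sources used here. Values were fractional for 5.38% to 5.96% of genes, and rounding was applied to each. Samples were grouped by the genotype label. Genes were filtered with filterByExpr (minimum count 10) and compared in edgeR 4.0.16 under R 4.3.3 by its quasi-likelihood F test (robust, TMM scaling, two-sided), adjusted by Benjamini-Hochberg over all 16960 genes tested. Alternatives quoted as ranges of adjusted p are the 19 fits at the same threshold. Standard errors are the log2 fold change over the root of F. The regulators and gene lists were chosen with earlier results of these data known. Named besides the 9 regulators are the 3 genes of each related list with the smallest p and the closest gene to each regulator. Named outside this rule are Myh7, Cdh15, Ctgf, Myh3 and Myog, after their values were seen, and Myoz2 and Des, which are in 2 lists. Ckm and Cdh15 are in 2 lists as well. The other smooth muscle markers and the slow fibre genes of low level were named after their values were seen, outside this rule too. The genes overlapping Prox1 or Nfix and the epithelial marker Epcam are also outside it. Gene positions and exon lengths are from GENCODE M21 and promoters from RefSeq, which had windows for 5 of the 9. Alternatives were DESeq2 1.42.0, limma 3.58.1 voom, other scalings, filters and thresholds, no rounding, leaving out each mouse, a replicate block and the epithelial libraries. Tested on simulated data made from these libraries (16689 genes after filtering), edgeR recovered 23.9%, 58.2% and 74.2% of genes changed 1.5, 2 and 4 times. The genes changed numbered 67, 67 and 66, and 15.4% of the 123 calls were false. That false share is above what an adjusted p below 0.05 aims at. In the real data 34.6% of genes were called. No simulation with so many changed genes was run, so the false share among the real calls is not known. Some results that need a withheld item are not reported here, and the list and family that held it were reduced for that reason.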

Additional observations from a re-analysis of the deposited data

How the results depend on the processing

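The 5 lower and 2 higher calls among the 9 regulators held in DESeq2, limma voom, RLE and upper-quartile scaling, both other filters, unrounded counts and no robust estimation. With library totals alone 0 were lower and 4 higher, while 11725 genes were called in place of 5869; Six4, Tbx15, Nfatc1 and Nfix turned to 0.19, 0.0303, 0.46 and 0.58 on the log2 scale. Of the other genes named, Mob1b, Lats1, Nfic, Bhlhe41, Ppard and Rreb1 turned to 0.0163, 0.40, 0.0923, 0.12, 0.56 and 0.63, and the medians of the calcineurin-NFAT list, the NFI, SOX, T-box and PROX relatives and the other regulators to 0.50, 0.55 and 0.63. This follows from the scaling itself, which moved the median of all genes by 0.72. Leaving out 1 mouse at a time gave 1 to 2 higher and 4 to 5 lower regulators and 4325 to 5402 genes called. At an adjusted p below 0.01, 0 regulators were higher and 3 lower, of 3424 genes. Libraries without epithelial transcripts gave 3127 genes and 1 higher regulator, and those with them 5297 genes and 0 higher; fewer samples enter these fits.

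With a replicate block 4737 genes were called, 5 regulators were lower and 1 was higher, Eya1 missing the threshold (0.56, edgeR adjusted p = 0.0771). The mouse numbers are not taken to pair the samples, since the deviations of same-numbered mice correlated at 0.20, 0.24 and -0.27 across genes. Dividing counts by exon length changed the difference in family share, 113Q minus WT, from 3.06 to 4.30 points for Nfix, 6.24 to 9.37 for Sox6, 1.82 to 3.27 for Eya1, -1.95 to -3.19 for Nfatc1, -28.4 to -21.5 for Vgll2 and -4.11 to -3.16 for Tead1. Depth limits Prox1 most, with 15 counts in its lowest library.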

Other observations

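Ratios of counts within a library need no scaling, and a few pairs of partners or relatives, chosen after their values were seen, are given as values. For each count of Six4 there were 0.921, 1.39 and 1.58 counts of its coactivator Eya1 in WT and 3.02, 2.70 and 2.40 in 113Q. The ratio was higher in each 113Q library than in any WT library, which the choice of the pair fixes in part, so no test is given.

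Vgll2 had more counts than Vgll3 in WT, at 4.18, 5.69 and 2.23 counts to 1, and fewer in 113Q, at 0.565, 0.789 and 0.959 counts to 1. These ratios did not overlap between the groups. Counts are not divided by length here, so a ratio compares libraries and not the number of molecules of the 2 genes.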
